A study of Mus musculus with 70 samples.

Results

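Wnt, Fgf and Bmp ligands are secreted signals that pattern the embryo. Wnt proteins act through Frizzled receptors, Fgf proteins through receptor tyrosine kinases, and Bmp proteins with their Gdf relatives through serine/threonine kinase receptors that activate Smads. The genes of these ligands are switched on in restricted places such as the limb bud, the face and the signalling centres of the brain, and several are known to be controlled from enhancers far from the gene. The same ligand is reused in many tissues, so where its promoter makes contact in each tissue is a natural question for a map of promoter interactions.

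The rule for the genes used their names and no measured value. It took all autosomal protein-coding mouse genes of GENCODE M21 (build GRCm38/mm10) called Wnt, Fgf, Bmp or Gdf followed by a number and, in some, a letter. This gave 59 genes of 20807, with 19 Wnt, 20 Fgf, 10 Bmp and 10 Gdf genes. The name does not fix the function. Bmp1 encodes a secreted protease, and Fgf12 and Fgf14 encode proteins that stay inside the cell and bind voltage-gated sodium channels.

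H3K4me3 PLAC-seq (proximity ligation followed by immunoprecipitation with an antibody to the promoter mark H3K4me3) was carried out in wild-type tissues of C57BL/6N mouse embryos with no treatment. At embryonic day 12.5 (E12.5) there were 7 tissues. FB was the forebrain, MB the midbrain, HB the hindbrain and NT the neural tube, while LM was the limb, CF the craniofacial prominence and LV the liver. FB was also sampled on each of the next 4 days, up to E16.5, and on the day of birth (P0). Each of the 12 tissue-stages had 2 biological replicates, giving 24 libraries, and the 2 were also pooled into 1 list of interactions per tissue-stage. CTCF ChIP-seq peaks of the same 12 tissue-stages were available, each list from 2 libraries except P0, which had 1. The 2 CTCF libraries were technical replicates in LV and in FB at E14.5, and biological replicates in the other tissue-stages.

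An interaction was a pair of 10-kb bins, 20 kb to 1 Mb apart, that the study called as enriched. Interactions per gene were counted as the distinct called pairs with an end in a bin holding a transcription start site (TSS bin) of the gene. Replicate numbers were scaled to the median library total of 25872 calls and are given here as scaled interactions. The pooled lists are given as numbers of calls, without an error since there is 1 list per tissue-stage. These numbers are not scaled to the list totals, which ran from 21945 calls (LV) to 79677 (FB P0). PLAC-seq reads only contacts of chromatin that carries H3K4me3, so a lost contact and a lost mark at the promoter cannot be told apart, nor can fewer cells of a type and fewer contacts per cell in these bulk tissues.

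Library totals ran from 11396 calls (LV replicate 2) to 63868 (FB P0 replicate 1). The other small libraries were LM replicate 1 (12461), LV replicate 1 (15016) and FB E12.5 replicate 2 (16075), while LM replicate 2 had 20775. LV stood apart by a median distance of 160 to 170 kb, against 230 to 300 kb in the other libraries. Between the 2 replicates of a tissue-stage, 29.0% (LV) to 54.4% (FB E16.5) of the ligand genes' calls were in both, of the calls in either. Summed interactions at marker genes were highest in the labelled tissue for FB, MB, NT, LM, CF and LV. In the pooled E12.5 lists, the labelled tissue was highest for 3 of 3 FB, 3 of 4 MB and 4 of 4 NT markers. It was highest for 2 of 5 LM, 4 of 5 CF, 1 of 5 LV and 0 of 4 HB markers. The LV markers summed to 10.3 to 13.6 in the LV libraries and 2.30 to 8.31 elsewhere, and 2 of these 5 genes had no call in the pooled LV list. HB did not stand out by its markers, with 33.3 to 39.2 scaled interactions in HB and up to 63.5 in NT.

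Of the 59 ligand genes, 54 had a call in at least 1 pooled list (91.5%, against 76.1% of all genes) and 17 had one in all 12 (28.8%, against 18.1%). Wnt7a, Wnt9a, Wnt11, Fgf8, Fgf15 and Gdf11 had a call in each of the 24 libraries. Wnt2, Wnt8b, Fgf6 and Gdf3 had none in any list, and Gdf15 had calls only in replicate lists. In 10 genes a TSS bin also held the start of another protein-coding gene, so their calls cannot be assigned to 1 promoter. These were Fgf8 (with Npm3), Fgf11 (Tmem102), Fgf20 (Micu3), Fgf21 (Fut1), Bmp1 (Sftpc), Bmp4 (Gm15217), Bmp8b (Oxct2b), Gdf3 (Apobec1), Gdf5 (Gm15557) and Gdf9 (Uqcrq).

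The means over the 24 libraries differed widely between genes. Among the Wnt genes they were highest for Wnt7b (37.4 scaled interactions), Wnt5a (27.7) and Wnt11 (10.4). Among the Fgf genes Fgf8 (14.7), Fgf15 (8.46) and Fgf9 (6.46) led. The Bmp and Gdf genes were lower, led by Bmp2 (7.98), Bmp4 (5.94) and Bmp3 (3.41), and by Gdf11 (4.64), Gdf10 (3.92) and Gdf5 (2.45). These numbers also depend on how many TSS bins a gene has and how marked its promoter is, and the order is a description.

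Bmp3 ranged from 0 to 6.55 scaled interactions over the 24 libraries, Gdf10, a relative of Bmp3, from 0 to 7.18 and Gdf11 from 1.05 to 10.4. The 31 genes that were tested in neither fit had between 0 and 39 pooled calls over the 12 lists. Among them Wnt5b (39), Wnt9b (32), Bmp1 (22) and Fgf1 (21) had the most, and Fgf2 and Fgf22 had 1 each. Gdf2, which encodes Bmp9, a circulating ligand made in the liver, had 2 pooled calls, both in LV. Both had the same partner bin and list as calls of Gdf10, which lies 3.06 kb away.

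**Figure D1:**
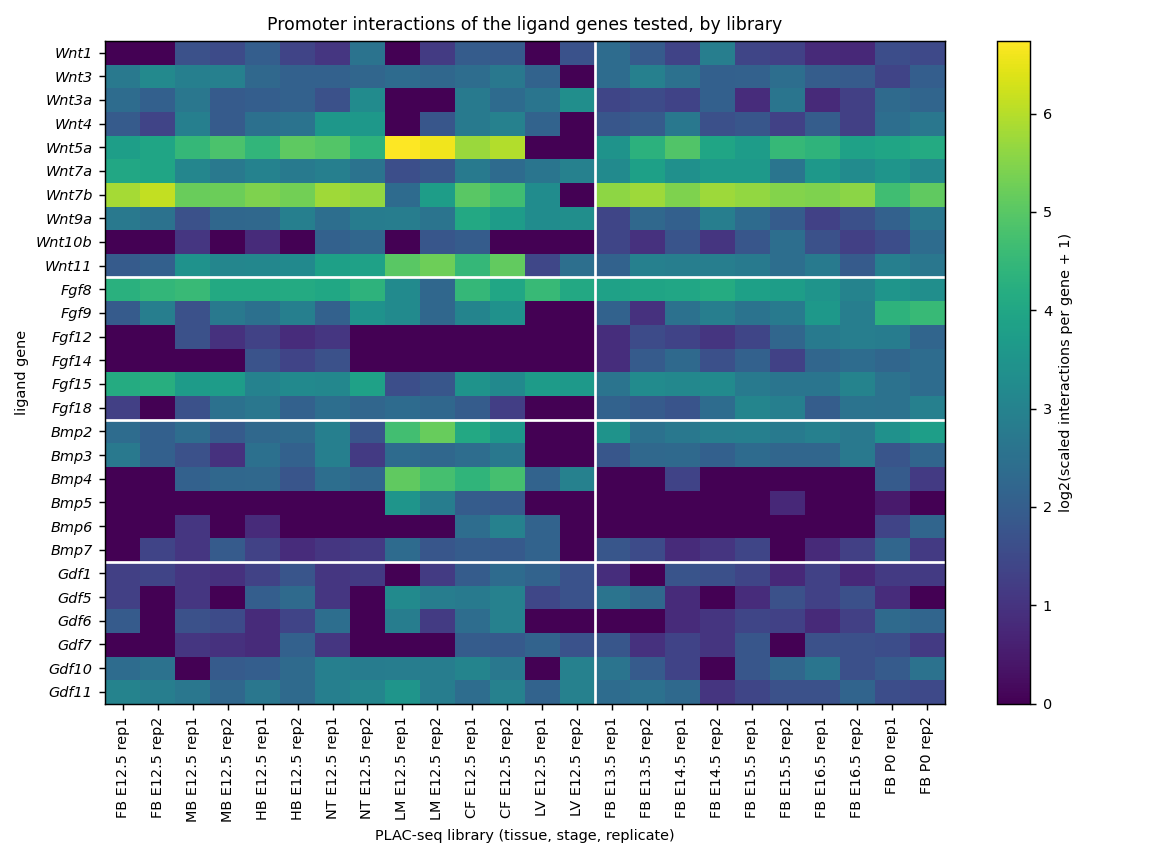
Scaled interactions, as log2(value + 1), of the 28 ligand genes that reached the test filter in either fit, 1 row per gene and 1 column per replicate library. White lines separate the 4 families, and the E12.5 tissues from the later FB stages. Wnt5a, Bmp2 and Bmp4 are brightest in LM and CF, Wnt7b in the neural columns, and the 2 LV columns are dark for Wnt5a, Bmp2 and Fgf9.

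The CTCF-bound sequences below, read from the RefSeq GRCm38 assembly, belong to the TSS bins and partner bins of the genes with the longest or most recurrent contacts. They are shown because the orientation of CTCF motifs at both ends of a contact is the feature by which loops are usually described. Each is printed 5′ to 3′ on the strand that carries the motif, with the 19 motif positions in capitals. The motif was a matrix of 19 positions with the consensus NNGCCACNAGGGGGCGCNN, and a match need not hold these exact letters. It was searched on both strands within CTCF peaks, and 81.3% to 89.2% of all peaks held a match, depending on the list.
Wnt5a TSS bin, chr14:28505046-28505088, plus strand: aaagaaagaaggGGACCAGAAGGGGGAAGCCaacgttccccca
Wnt5a TSS bin, chr14:28507692-28507734, minus strand: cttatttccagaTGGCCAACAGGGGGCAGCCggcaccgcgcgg
Wnt5a partner, chr14:27804238-27804280, plus strand: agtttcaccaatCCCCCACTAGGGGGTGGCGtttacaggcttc
Wnt5a partner, chr14:29073943-29073985, minus strand: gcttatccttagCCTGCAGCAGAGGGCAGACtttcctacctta
Wnt7b TSS bin, chr15:85583687-85583729, minus strand: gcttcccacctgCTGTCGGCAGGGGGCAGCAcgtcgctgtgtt
Wnt7b partner, chr15:85266893-85266935, plus strand: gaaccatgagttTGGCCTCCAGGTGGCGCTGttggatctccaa
Fgf8 TSS bin, chr19:45746519-45746561, plus strand: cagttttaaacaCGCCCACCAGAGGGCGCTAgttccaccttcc
Fgf8 TSS bin, chr19:45747661-45747703, minus strand: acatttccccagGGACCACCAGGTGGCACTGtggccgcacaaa
Fgf8 partner, chr19:45220721-45220763, plus strand: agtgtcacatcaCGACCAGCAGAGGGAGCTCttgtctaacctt
Bmp2 TSS bin, chr2:133550288-133550330, plus strand: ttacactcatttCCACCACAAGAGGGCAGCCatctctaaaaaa
Bmp2 partner, chr2:134481948-134481990, minus strand: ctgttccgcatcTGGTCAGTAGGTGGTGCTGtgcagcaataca
Gdf6 TSS bin, chr4:9841311-9841353, plus strand: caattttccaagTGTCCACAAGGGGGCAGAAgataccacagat
Fgf9 partner, chr14:58701915-58701957, minus strand: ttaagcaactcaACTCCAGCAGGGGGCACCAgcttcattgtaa

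Wnt5a (14:28504750-28527448, plus strand), a Wnt that mostly signals without β-catenin and is needed for limb and face outgrowth, had 115 pooled calls in LM and 106 in CF. The neural lists at E12.5 held 40 (FB), 49 (MB), 69 (HB) and 65 (NT), and LV held 4. Over all 12 lists it made 663 calls, 344 toward lower and 319 toward higher coordinates, at a median distance of 520 kb, and 11.2% of its calls had a promoter in the partner bin. Wnt5a was thus among the ligand genes that reached to both sides.

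The partners of Wnt5a fell in recurrent blocks. A block at 14:27780001-27840000, -720 to -670 kb from the TSS bin with a start of Erc2, was called in all 12 lists, with an observed over expected ratio of up to 15.5. On the other side, blocks at 14:28920001-28980000 (12 lists) and 14:29060001-29120000 (11 lists, up to 13.4) held starts of Cacna2d3, which encodes a calcium channel subunit. The strongest CTCF site of the TSS bins (12 of 12 peak lists, up to 43.2-fold enriched) had its motif on the minus strand and that of the lower block (12 lists, 51.6-fold) on the plus strand, so these 2 motifs faced each other. The site in the higher block (9 lists, 10.3-fold) was on the minus strand. It faced a weaker plus-strand site of the Wnt5a TSS bins (9 lists, 6.12-fold), and not the minus-strand site.

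Wnt7b (15:85535437-85582473, minus strand), which acts in the developing brain vasculature, lung and kidney, made 585 pooled calls, 579 of them downstream, across its own transcribed side. Its main block, 15:85230001-85420000, covered Fbln1 and Atxn10, was called in 12 lists and reached an observed over expected ratio of 17.5. The TSS bins of Wnt7b held 2 CTCF motifs on the plus and 2 on the minus strand. A minus-strand motif (12 lists, 40.0-fold) and a plus-strand motif of the partner bin (12 lists, 41.0-fold) faced each other. The calls of Wnt7b lay at a median of 250 kb, nearer than those of Wnt5a.

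**Figure D2:**
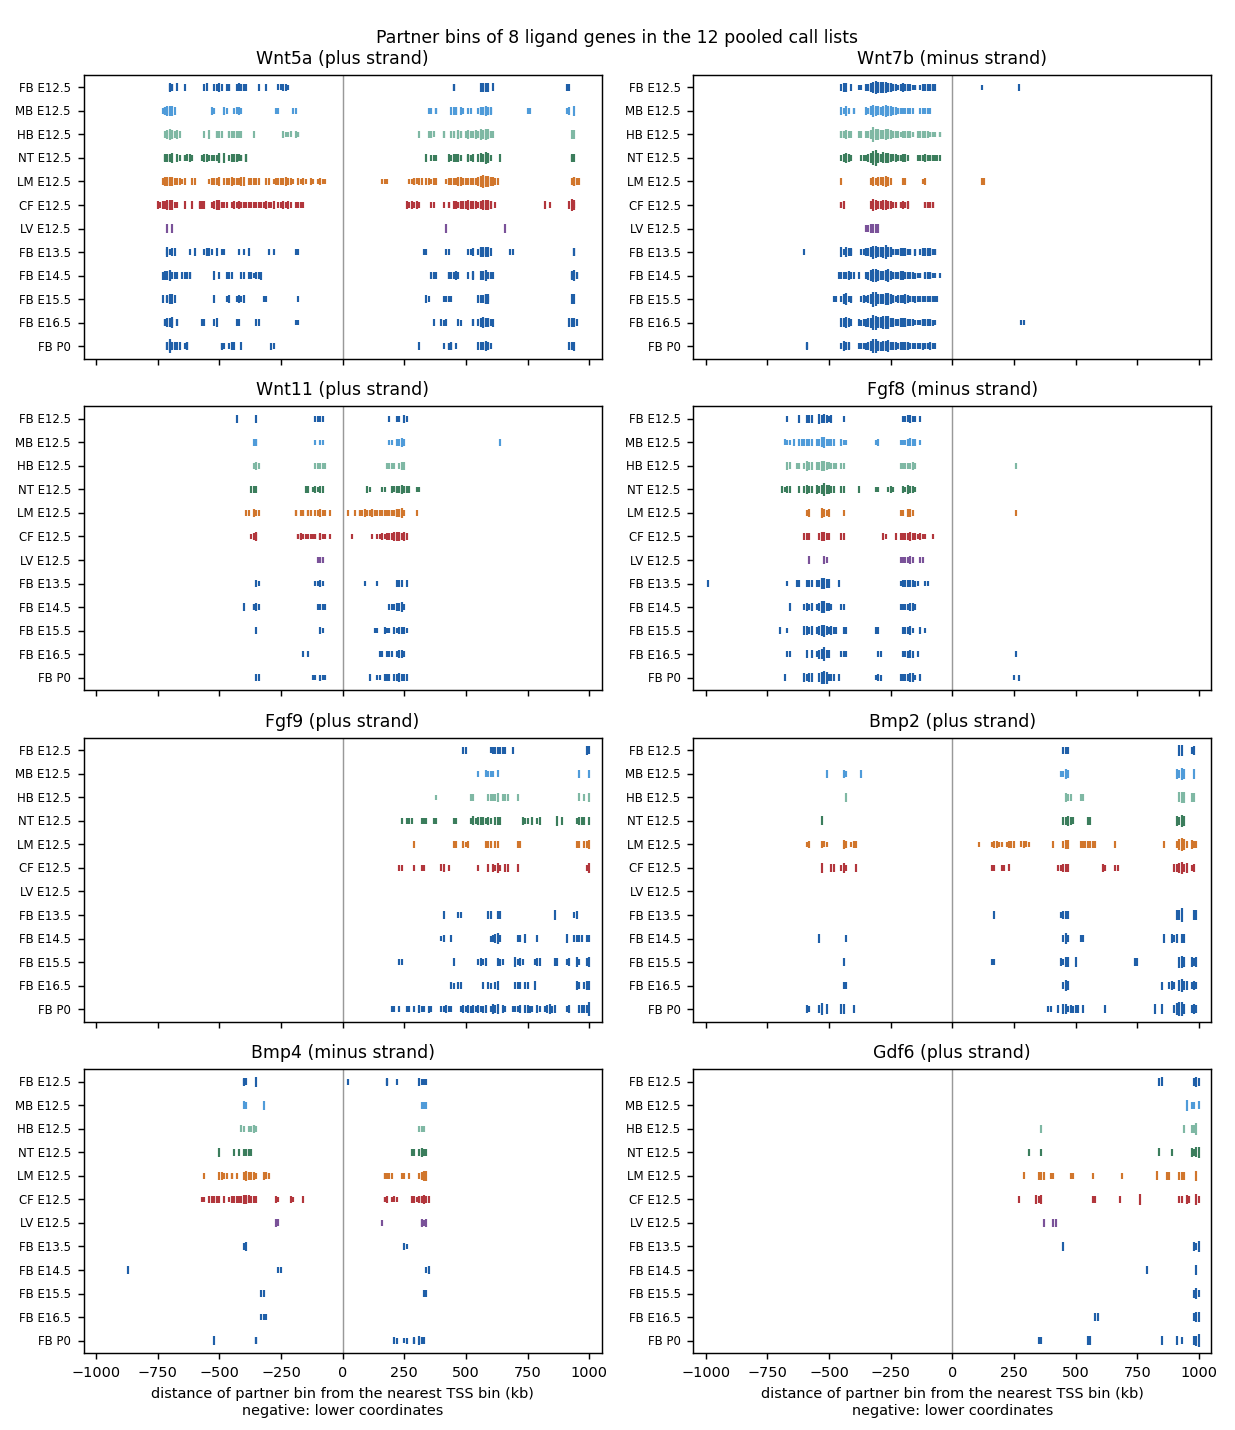
Distance of the partner bins (kb, negative toward lower coordinates) from the TSS bin of 8 ligand genes in the 12 pooled lists, 1 row per list, colored by tissue, with the tick size scaled to the observed over expected ratio. Wnt5a, Wnt11 and Bmp4 reach to both sides, Wnt7b and Fgf8 to lower coordinates and Fgf9 and Gdf6 to higher coordinates.

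To compare tissues, limma was fitted to log2(scaled interactions + 1) of all genes with a mean of at least 1. The E12.5 fit held 14 libraries and 5389 genes, of which 26 were ligand genes, and the FB fit held 12 libraries and 5318 genes, of which 25 were. The other 33 and 34 ligand genes had too few calls. At E12.5, Bmp5 passed this filter only through its LM and CF libraries, and Bmp6 only through those of CF. The filter thus used the same values as their tests, and their differences between these and other tissues were in part set by it. Adjusted p-values are Benjamini-Hochberg values over all genes tested, with a threshold of 0.05, and fold changes are differences on the log2(scaled + 1) scale, which understates the change of genes with few calls. The p-values measure the spread between 2 libraries per tissue-stage, and the E12.5 comparisons share libraries, so they are not independent of each other. Where ranges of a called gene are said not to overlap, this describes the values that the test used. It adds no support to the call in any comparison.

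In LM, Wnt5a, Wnt11, Bmp2, Bmp4, Bmp5 and Gdf5 had more interactions than in the other 6 tissues, and Fgf15, Fgf8, Wnt3a, Wnt7a and Wnt7b had fewer. Ligands with known roles in the limb bud were in both groups. Of 26 ligand genes tested, 6 were called higher (11.3% of all genes tested were) and 5 lower (13.5% of all genes). The median difference was 0.36 over the ligand genes and -0.19 over all genes. In a 2-group fit, whose error also holds the spread among the other tissues, 5 ligand genes were called, and Wnt5a was not among them (adjusted p = 0.17).

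Wnt5a had 105.9 and 95.9 scaled interactions in the LM replicates, 51.7 and 61.3 in CF, 12.7 to 32.5 in the 8 neural libraries and 0 in both LV libraries. The LM range did not overlap any other. Its mean in LM was 100.9 against 24.3 in the other tissues, a difference of 2.71 ± 0.22 (SE, adjusted p = 6.82e-06). Bmp2, which with Bmp4 shapes the digits, had 24.9 and 34.9 in LM, 15.8 and 10.9 in CF, 2.44 to 6.55 in the neural libraries and 0 in LV. The difference was 2.78 ± 0.33 (adjusted p = 0.000119). Bmp2 was above every other library in both LM replicates.

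Bmp4 had 33.2 and 26.2 scaled interactions in LM, 20.1 and 25.9 in CF, 3.45 and 6.81 in LV and 0 to 4.37 in the neural libraries. The LM mean was 29.7 against 6.47 elsewhere, a difference of 2.65 ± 0.30 (adjusted p = 7.11e-05). Most Bmp4 calls came from an internal TSS bin that it shares with Gm15217 (117 pooled calls, against 41 of the 5′-end bin). With the 5′ end alone Bmp4 was no longer past the threshold (adjusted p = 0.142), so the difference could not be given for the Bmp4 start by itself. Bmp5, whose loss in mice shortens the ears and alters the skeleton, had 10.4 and 6.23 in LM and 2.87 and 2.73 in CF. It had no call in any of the 8 neural or 2 LV libraries (difference 2.86 ± 0.30, adjusted p = 5.23e-05).

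Wnt11, another Wnt that signals largely without β-catenin, had 31.1 and 37.4 in LM, 21.5 and 34.1 in CF and at most 13.4 in the other libraries. The difference in LM was 1.96 ± 0.28 (adjusted p = 0.000367), although CF replicate 2 lay within the LM range. Gdf5, a signal of joint formation, had 8.30 and 6.23 in LM and 5.75 and 6.82 in CF. Its difference in LM was 1.65 ± 0.47 (adjusted p = 0.0218) and was lost without LM replicate 1 or 2 (adjusted p up to 0.195).

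Among the genes lower in LM, Wnt3a, a canonical Wnt of the tail bud and the cortical hem, had no call in either LM library and a mean of 4.74 elsewhere, at least 2.03-fold lower when 3 calls over both libraries are taken as the limit (adjusted p = 0.0014). The pooled LM list, from replicates pooled and downsampled by the study, held 4 Wnt3a calls. The others held 5 in FB and MB, 6 in HB, 4 in NT and LV and 8 in CF, so these unscaled counts did not set LM apart. Fgf15, the mouse counterpart of human FGF19, had 2.08 and 2.49 in LM and 6.91 to 17.7 in the other libraries (difference -1.87 ± 0.24, adjusted p = 0.000194). Fgf8, the ligand of the limb's apical ridge and of the midbrain-hindbrain boundary, had 8.30 and 3.74 in LM and 15.0 to 22.7 elsewhere (-1.53 ± 0.27, adjusted p = 0.00143). The ranges of these 3 genes did not overlap between LM and the other tissues. They were called from the same values, so this adds no support.

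Wnt7a, which marks dorsal limb ectoderm, had 2.08 and 2.49 in LM and 4.09 to 15.5 elsewhere, a difference of -1.26 ± 0.27 (adjusted p = 0.00457) that ended without LM replicate 1 (adjusted p = 0.0559). Wnt7b had 4.15 and 12.5 in LM against a mean of 37.1 (-1.73 ± 0.56, adjusted p = 0.0389). This call was lost on leaving out any of 12 single libraries, with an adjusted p of up to 0.389 without LM replicate 1. The Wnt7b values in LM and LV overlapped.

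Genes that receive or answer these signals were counted from lists of receptors, secreted modulators and targets. Of 48 such genes tested in LM, 27 were higher and 1 was lower, where 11.3% and 13.5% of all genes tested were. By list, 5 of 12 Wnt receptors, 6 of 7 Fgf targets and feedback genes and 6 of 7 Bmp targets and Smads were higher. The lowest adjusted p-values were those of Rspo3, a secreted enhancer of Wnt signalling (22.0 against 4.52 scaled interactions, difference 2.47, adjusted p = 0.000192), and Smad5, a transducer of Bmp signals (6.85 against 0.221, adjusted p = 0.000254). Smad7, an inhibitory Smad (56.9 against 19.6), and Wif1, a secreted Wnt inhibitor (6.23 against 0.489), followed. These lists thus held activators and inhibitors alike.

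**Figure D3:**
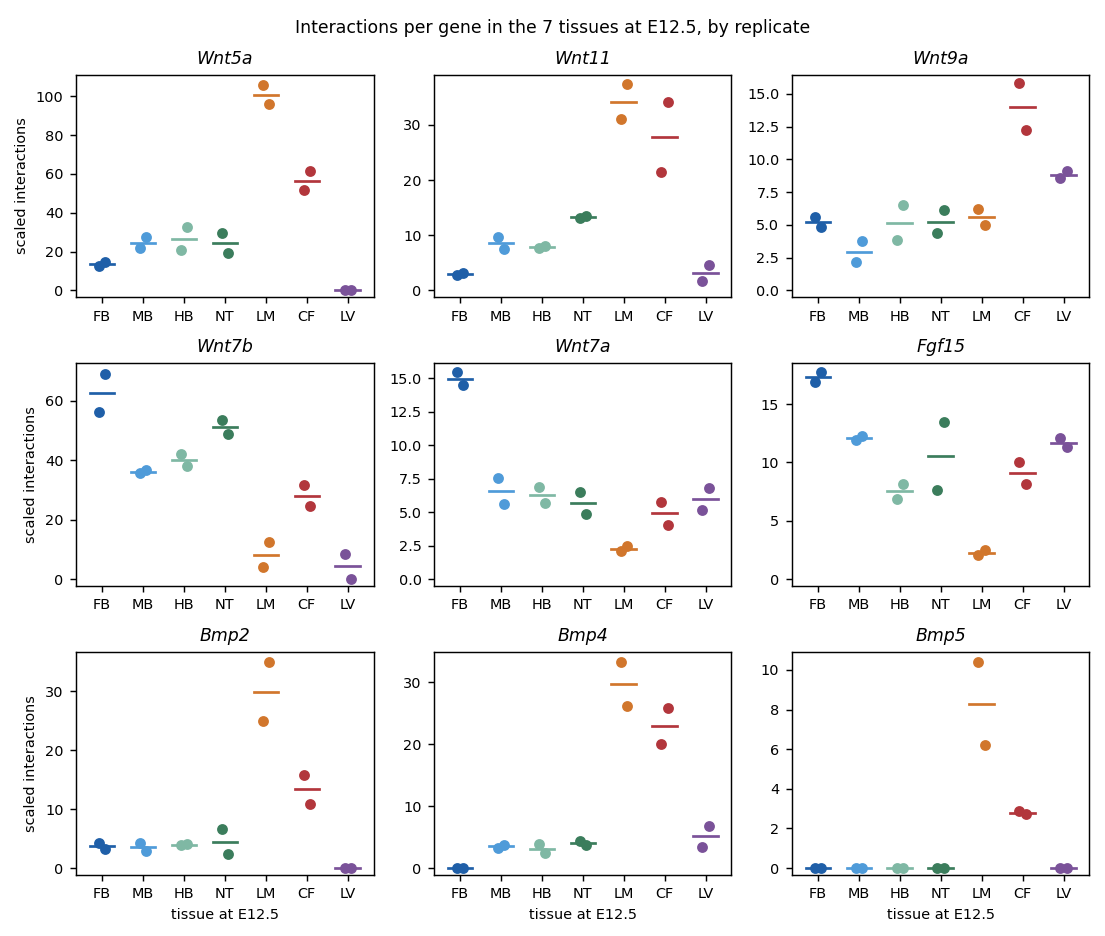
Scaled interactions of 9 ligand genes in the 7 tissues at E12.5, with 1 point per replicate and a bar at the mean of the 2. In the Wnt5a panel both LM points (105.9 and 95.9) lie above all others, in the Wnt7b panel the neural points lie above the LM, CF and LV points, and in the Bmp5 panel points above 0 are seen in LM and CF.

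In CF, 7 of the 26 ligand genes had more interactions than the other tissues (2.99% of all genes tested did) and 0 had fewer (1.87% of all genes). They were Wnt5a, Bmp4, Wnt11, Bmp6, Bmp5, Bmp2 and Wnt9a, and 5 of these were also among those higher in LM. The median difference was 0.83 over the ligand genes and 0.07 over all genes. LM is part of the group that CF was compared with.

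Wnt5a was higher in CF by 1.74 ± 0.22 (56.5 against 31.7, adjusted p = 0.000794) and Bmp4 by 2.24 ± 0.30 (23.0 against 7.58, adjusted p = 0.00126). Wnt11 was higher by 1.59 ± 0.28 (27.8 against 11.7, adjusted p = 0.00629). Bmp6, a Bmp of cartilage and liver, had 4.31 and 6.82 in CF and 0 to 3.45 elsewhere, a difference of 2.35 ± 0.48 (adjusted p = 0.0153). Wnt9a, a Wnt of joint formation, had 15.8 and 12.3 in CF, 8.62 and 9.08 in LV and 2.17 to 6.51 in the rest (1.26 ± 0.28, adjusted p = 0.0249). In Bmp6 and Wnt9a both CF replicates lay above every other library. By number of pooled calls Wnt9a was also highest in CF at E12.5 (11, against 6 in the smaller LV list), while Bmp6 had 9 calls in CF and 9 in NT.

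Bmp5 (2.80 against 1.38, adjusted p = 0.0224) and Bmp2 (13.4 against 7.61, adjusted p = 0.0248) had lower values in CF than in LM. Both calls ended when LV was left out (adjusted p = 0.0743 and 0.0817), leaving 5 calls. The CF count rested on both of its libraries. It was 3 without CF replicate 1 and 1, that of Wnt5a, without CF replicate 2, where the adjusted p was 0.0534 for Bmp4 and 0.16 for Wnt11, and those of Bmp6, Bmp5, Bmp2 and Wnt9a reached 0.186, 0.125, 0.297 and 0.273 without 1 of the CF replicates. With the 5′ end alone, Bmp4 and Wnt11 were not past the threshold in CF, and in the 2-group fit 0 genes were.

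Of the 48 receptor, modulator and target genes, 6 were higher in CF and 1 was lower (2.99% and 1.87% of all genes). Lef1, a nuclear effector of Wnt signalling, had 23.8 scaled interactions against 15.8 (adjusted p = 0.0123), Nbl1, a secreted Bmp antagonist, 18.9 against 8.64 (adjusted p = 0.0182), and Ror1, a receptor of Wnt5a, 19.6 against 5.91 (adjusted p = 0.026). Id4, a Bmp target that also acts in neural progenitors, was the gene that was lower (7.75 against 32.1, adjusted p = 0.00629).

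The LM and CF contacts of a gene overlapped in part. Of the partner bins of Wnt5a, 87 were called in LM and 74 in CF, and 61 were in both (70.1% of the LM and 82.4% of the CF bins). Bmp2 shared 19 bins (42.2% and 65.5%) and Bmp4 18 (66.7% and 51.4%). Some partner bins were called in LM or CF and in no neural list at E12.5, 37 of them for Bmp2, 33 for Wnt5a, 27 for Bmp4, 20 for Gdf6, 18 for Wnt11 and 14 for Fgf10. Fgf10, which starts limb bud outgrowth from the mesenchyme, was not tested, since its 1 replicate value above 0 was 6.23 in LM replicate 2, but it had 8 pooled calls in LM and 6 in CF. Fgf7, its close relative, had 3 pooled calls, all in LM.

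LV differed from the other tissues in the opposite direction. Of 26 ligand genes, 9 were lower in LV (24.1% of all genes tested were) and 1 was higher (22.1% of all genes). Wnt5a, Bmp2, Fgf9, Bmp3, Fgf18 and Bmp5 had no call in either LV library, and the pooled LV list held 4 calls of Wnt5a, 2 of Bmp5 and 0 of the others. The median difference was -0.62 over the ligand genes and -0.09 over all genes.

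Taking 3 calls over both LV libraries as the limit, Wnt5a was at least 13.99-fold lower in LV (mean 41.1 elsewhere, adjusted p = 1.04e-08), Bmp2 at least 3.35-fold (9.83, adjusted p = 1.99e-05) and Fgf9, a ligand of lung and skeletal growth, at least 1.99-fold (5.83, adjusted p = 0.000396). Bmp3, a Bmp that limits bone formation, was at least 1.28-fold lower (3.77, adjusted p = 0.00223) and Fgf18, a ligand of bone and cartilage, at least 1.05-fold (3.09, adjusted p = 0.00435). For Bmp5 the mean elsewhere (1.85) was below the limit and no fold is given (adjusted p = 0.0371, and up to 0.0708 without LV replicate 2). Wnt7b (8.62 and 0 in LV, mean 37.8 elsewhere, -3.40 ± 0.56, adjusted p = 0.000402) and Wnt11 (1.72 and 4.54, 15.8 elsewhere, -1.74 ± 0.28, adjusted p = 0.000305) kept some calls.

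Wnt3, a Wnt of gastrulation, had 3.45 and 0 in LV and 4.87 elsewhere (-1.43 ± 0.43, adjusted p = 0.0175), a difference that fell to -0.36 without LV replicate 2 (adjusted p = 0.352). Gdf7, a roof plate signal, was the gene that was higher, with 3.45 and 2.27 against 1.06 (1.11 ± 0.42, adjusted p = 0.0456), and leaving out any of 10 single libraries ended its call (up to 0.193). Without scaling its difference was 0.50 (adjusted p = 0.31). The pooled lists held 2 Gdf7 calls in LV, against 5, 2, 5, 3, 0 and 5 in FB, MB, HB, NT, LM and CF. These counts are not scaled, and the LV list held 21945 calls in all, against 51264 (FB) to 71456 (NT) in the other lists at E12.5. The LV libraries were among the smallest and had the shortest distances. With interactions up to 200 kb alone, 6 ligand genes were called in LV, 4 of them the same genes, and the part of library size was not tested further. Fgf8 (22.4 and 15.9) and Fgf15 (12.1 and 11.4) had LV values inside the range of the neural libraries.

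In LV the Wnt targets and nuclear effectors had fewer interactions for 6 of 7 genes tested, and the Wnt receptors for 6 of 12, with 1, Fzd4, higher. Over all lists 23 of 48 genes were lower and 4 higher (24.1% and 22.1% of all genes). Id4 and Lef1 had no call in the LV replicates, and 1 and 0 in the pooled LV list (means of 33.4 and 19.8 elsewhere, adjusted p = 1.49e-08 and 7.77e-08). Axin2, a feedback inhibitor and common readout of Wnt signalling, had 2.86 against 36.6 (-3.27, adjusted p = 8.87e-08), and Tcf7l2, a nuclear partner of β-catenin, 3.99 against 38.7 (-2.79, adjusted p = 6.83e-06).

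Between the 4 neural and the 3 non-neural tissues, Wnt7b, Wnt7a and Fgf15 had more interactions in the neural tissues, and Bmp4, Bmp5, Wnt11, Gdf5, Wnt9a, Bmp6 and Bmp2 had fewer. These were 3 of 26 higher (20.2% of all genes tested) and 7 of 26 lower (16.3%). The median difference was 0.03 over the ligand genes and 0.02 over all genes. With LV left out 13 genes were called, by edgeR 3 and in the 2-group fit 4.

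Wnt7b had 56.2 and 69.2 scaled interactions in FB, 35.7 and 36.7 in MB, 42.2 and 38.2 in HB and 53.5 and 48.9 in NT, all above the highest non-neural value of 31.6 in CF. The difference was 2.39 ± 0.40 (47.6 against 13.6, adjusted p = 0.000529). Wnt7a, its closest relative, had a mean of 8.40 in the neural and 4.40 in the non-neural libraries (0.78 ± 0.19, adjusted p = 0.006), with FB highest at 15.5 and 14.5. Fgf15 had 11.9 against 7.70 (0.71 ± 0.17, adjusted p = 0.00545), also highest in FB (16.9 and 17.7). The neural and non-neural ranges of Wnt7a and Fgf15 overlapped.

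Bmp4 was lower in the neural tissues by 2.39 ± 0.21 on the log2 scale (2.67 against 19.3, adjusted p = 3.9e-06), and its call held under all 26 alternatives tried. Bmp5, with no call in the 8 neural libraries, was at least 9.36-fold lower with 3 calls over those libraries as the limit (3.70 elsewhere, adjusted p = 8.25e-05). As Bmp5 had passed the filter only through LM and CF, this difference was in part set by the filter. The call was lost by edgeR (adjusted p = 1), and the pooled neural lists held 1, 1, 4 and 1 Bmp5 calls, against 11, 7 and 2 in LM, CF and LV. Wnt11 (8.21 against 21.7, adjusted p = 0.00302), Gdf5 (1.34 against 5.18, adjusted p = 0.00313) and Wnt9a (4.65 against 9.50, adjusted p = 0.00509) were also lower. The calls of Wnt11 and Wnt9a were lost by edgeR and in the 2-group fit. Without scaling their differences were -0.39 (adjusted p = 0.135) and -0.33 (adjusted p = 0.2). The non-neural Wnt11 values, from 1.72 in LV to 37.4 in LM, covered all neural ones. Pooled Wnt9a calls overlapped, with 4 to 7 in neural and 5 to 11 in non-neural lists. Pooled Gdf5 calls ran from 1 to 8 in both groups. Bmp6 (0.231 against 2.43, adjusted p = 0.0312) and Bmp2 (3.94 against 14.4, adjusted p = 0.046) were close to the threshold and lost the call on leaving out 10 and 13 of the 14 libraries in turn (adjusted p up to 0.0778 and 0.12). In the pooled lists Bmp6 was not lower in the neural tissues, with 3, 2, 4 and 9 calls in FB, MB, HB and NT and 1, 9 and 1 in LM, CF and LV. For Bmp2 the non-neural range ran from 0 in LV to 34.9 in LM and covered all neural values.

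Of the 48 receptor, modulator and target genes, 6 were higher and 10 lower in the neural tissues, shares near those of all genes (20.2% and 16.3%). Id4 (41.4 against 11.6, difference 2.69, adjusted p = 9.86e-08) and Axin2 (36.4 against 25.6, adjusted p = 6.37e-05) were higher. Dusp6, a phosphatase induced by Fgf signalling (16.5 against 37.0, adjusted p = 0.000136), and Smad7 (15.3 against 37.7, adjusted p = 0.000181) were lower.

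Within the neural tissues few differences were called. In FB against MB, HB and NT, 1 ligand gene was higher (0.742% of all genes tested) and 2 were lower (1.93%), with medians of -0.09 over the ligand genes and -0.16 over all genes. Wnt7a was the gene higher in FB (15.0 against 6.21, 1.16 ± 0.28, adjusted p = 0.0488). Without scaling its difference was 0.58 (adjusted p = 0.206). The pooled lists held 16 Wnt7a calls in FB, 15 in MB, 12 in HB and 19 in NT. These counts are not scaled, and the FB list was the smallest (51264 calls, against 56978, 61929 and 71456), so they do not rank the tissues on the scale of the test. Bmp4 had no call in the FB replicates (3.55 in the others, at least 1.58-fold lower, adjusted p = 0.00284). The pooled FB list, however, held 12 Bmp4 calls, against 6 in MB, 11 in HB and 15 in NT, so FB did not stand out as lower there. Wnt11 had 2.81 and 3.22 in FB and 7.53 to 13.4 in the other neural libraries (-1.41 ± 0.30, adjusted p = 0.0238).

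The ranges of these 3 genes did not overlap between FB and the other neural tissues. The test had picked them from the same values, so this is no further support. Only Bmp4 was called after leaving out any 1 of FB replicate 1, FB replicate 2, MB replicate 1, HB replicate 1 and HB replicate 2, with adjusted p of up to 0.14 for Wnt11 and 0.211 for Wnt7a. With the 5′ end alone 1 gene, Wnt7a, was called and Bmp4 was not. By edgeR or with interactions up to 200 kb no ligand gene was called, so the Bmp4 call was lost there as well. Of the receptor, modulator and target genes Lef1 (32.1 against 13.0, adjusted p = 0.0124), Rspo3 (10.6 against 3.43, adjusted p = 0.0298) and Id4 (67.4 against 32.7, adjusted p = 0.0417) were higher in FB.

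For MB, HB and NT, each against the other neural tissues, 0 ligand genes were called by limma, where 0.111%, 0.0% and 0.816% of all genes tested were called, and 0 by edgeR. At an unadjusted p under 0.05 there were 3 ligand genes in MB (Gdf10, Bmp4 and Wnt9a), 2 in HB (Gdf5 and Fgf15) and 4 in NT (Wnt11, Wnt10b, Bmp4 and Wnt4), where 6.40%, 6.31% and 10.5% of all genes tested were. Wnt11 had a mean of 13.3 in NT and 6.52 in the others (adjusted p = 0.168). Wnt4, a Wnt of kidney and gonad development, had 10.9 and 11.0 in NT and 1.61 to 6.50 in the other neural libraries.

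FB development was then compared between the late (E16.5 and P0) and the early stages (E12.5 and E13.5). Fgf9, Fgf12, Fgf14, Fgf18 and Wnt10b had more interactions late, and Fgf8, Wnt7b, Fgf15, Wnt3 and Gdf11 had fewer. Thus 5 of 25 ligand genes were higher (14.8% of all genes tested were) and 5 lower (9.23% of all genes). The median difference was 0.17 over the ligand genes and 0.15 over all genes. The 2-group fit called 6 of the 10, without Wnt7b, Fgf15, Fgf18 and Wnt10b, and interactions up to 200 kb gave 3 (Wnt7b, Wnt3 and Wnt10b), where Fgf9, Fgf12, Fgf14 and Fgf18 had too few calls to be tested.

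Fgf9 had 2.81 and 6.44 scaled interactions at E12.5, 3.35 and 0.953 at E13.5, 4.74 and 6.31 at E14.5, 4.93 and 5.83 at E15.5, 11.0 and 6.33 at E16.5 and 19.4 and 22.3 at P0. The P0 values lay above all earlier ones, and 1 E16.5 value overlapped the early range. The difference was 1.86 ± 0.30 (14.8 against 3.39, adjusted p = 0.000687). Fgf12 had no call at E12.5, 0.838 and 1.91 at E13.5, 5.87 and 6.33 at E16.5 and 6.08 and 3.61 at P0, with no overlap between late and early replicates (2.07 ± 0.34, adjusted p = 0.000791). Fgf14 had 0 at E12.5, 0.838 and 2.86 at E13.5 and 3.65 to 4.22 at the late stages (1.59 ± 0.35, adjusted p = 0.00534). Both of these intracellular proteins act on sodium channels of neurons.

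Most calls of Fgf12 and Fgf14 came from an internal TSS bin rather than from the 5′ end of the gene. For Fgf12 the internal bin made 117 pooled calls and the 5′-end bin 13, and for Fgf14 the numbers were 55 and 13. Fgf18 (4.84 against 1.90, 1.17 ± 0.32, adjusted p = 0.0164) and Wnt10b, a Wnt of bone and fat (2.46 against 0.657, 1.13 ± 0.36, adjusted p = 0.0341), were also higher late. These calls ended on leaving out any of 3 and 5 single libraries (adjusted p up to 0.0757 and 0.15).

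Fgf8 had 18.3 and 20.9 at E12.5, 13.4 and 14.3 at E13.5, 15.0 and 16.8 at E14.5, 13.2 and 12.4 at E15.5, 10.3 and 7.03 at E16.5 and 10.5 and 9.03 at P0. Early and late values did not overlap (-0.79 ± 0.17, adjusted p = 0.00516). Wnt7b had 56.2 and 69.2 at E12.5, 47.8 and 53.4 at E13.5, 42.5 and 46.4 at E16.5 and 24.7 and 33.1 at P0, again without overlap (-0.64 ± 0.15, adjusted p = 0.00626). Both genes were called from these same values, so the lack of overlap is no further support. Scaling decides both directions, since the late libraries held more calls. Without scaling the differences were 0.10 for Fgf8 and 0.30 for Wnt7b (adjusted p = 0.0257), and the median over all genes moved by 0.67, so the lower late values hold relative to the library total.

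Fgf15 (5.31 against 12.0, -0.92 ± 0.21, adjusted p = 0.00691), Wnt3 (2.59 against 6.13, -0.98 ± 0.27, adjusted p = 0.0175) and Gdf11, a regulator of axial patterning and neurogenesis (2.39 against 5.60, -0.97 ± 0.31, adjusted p = 0.0366), were lower late. The calls of Wnt3 and Gdf11 ended on leaving out any of 3 and 7 single libraries (adjusted p up to 0.0844 and 0.117). Without FB E13.5 replicate 2 or FB E16.5 replicate 2 the count was 6. In Wnt3 and Gdf11 the late and early values did not overlap. Without scaling, Fgf15, Wnt3 and Gdf11 were not past the threshold (adjusted p = 0.831, 0.501 and 0.615).

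The pooled lists, which the study downsampled in read pairs, showed some of these differences and not others in unscaled numbers of calls. Fgf9 had 12 and 10 calls early and 20 and 55 late, Fgf14 2 and 5 against 12 and 14, and Fgf18 4 and 2 against 12 and 17. Fgf12 had 2 at E12.5 but 15 at E13.5, against 15 and 24 late, and Wnt10b had 3 and 2 against 3 and 7. Of the genes lower late, Wnt7b (53 and 62 early, 65 and 60 late) and Fgf8 (19 and 24, 22 and 26) did not have fewer pooled calls. The lists themselves held 51264 and 57174 calls early and 66050 and 79677 late. These counts can therefore not be set against differences relative to the library total. Fgf15 had 19 and 11 against 8 and 12, Wnt3 5 and 9 against 6 and 5, and Gdf11 9 and 7 against 6 and 5.

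**Figure D4:**
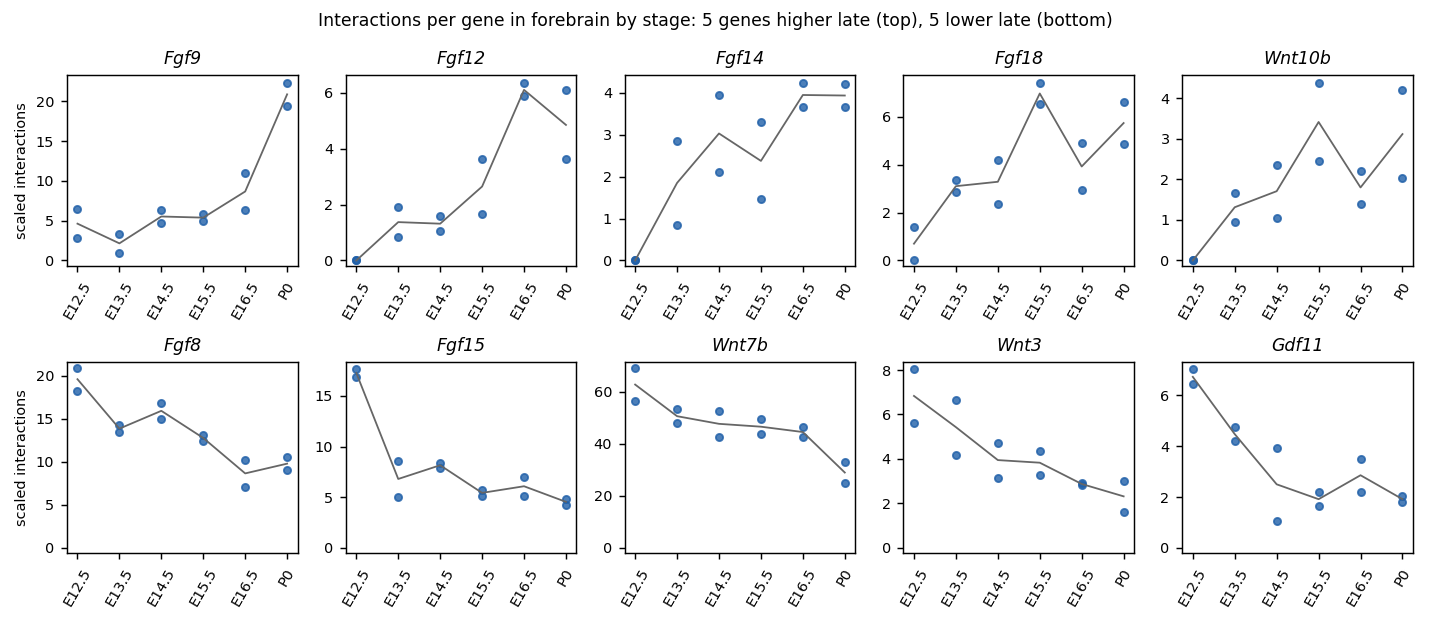
Scaled interactions of the 10 ligand genes called between late and early FB, by stage from E12.5 to P0, with 1 point per replicate and a line through the means. Fgf9 rises to 19.4 and 22.3 at P0, Fgf12 starts from 0 at E12.5, and Wnt7b goes from 56.2 and 69.2 at E12.5 to 24.7 and 33.1 at P0.

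Among the receptor, modulator and target genes 13 of 46 tested in FB were lower late and 2 higher (9.23% and 14.8% of all genes), with 6 of 7 Wnt targets and nuclear effectors lower. Tcf7l2 had 11.2 against 38.5 (-1.72, adjusted p = 0.000341), Ror2, a receptor of Wnt5a, 1.85 against 9.86 (-1.87, adjusted p = 0.000415), Fgfr3, an Fgf receptor, 1.51 against 6.86 (-1.74, adjusted p = 0.000668), and Lef1 7.59 against 23.0 (-1.36, adjusted p = 0.00259).

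The partners of the genes that changed were in part kept. In the pooled lists Fgf9 had 12 partner bins in FB at E12.5 and 55 at P0, and 11 of them were in both (91.7% of the E12.5 and 20.0% of the P0 bins). Of its bins, 43 were called only in late FB lists when late and early are set side by side. Fgf12 had 21 such bins, Fgf18 17 and Fgf14 15, and Bmp2, which was not called in this comparison, 25. Wnt7b kept 31 bins between E12.5 and P0 (91.2% and 88.6%), with 4 found only late. The pooled FB lists grew from 51264 calls at E12.5 to 79677 at P0, and the part of this growth in the number of late-only bins was not tested.

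Direction and distance were described for the 32 ligand genes with at least 20 pooled calls, beside 8183 genes of any kind with as many. The main side of a gene was the one with more calls. In 18 ligand genes (56.3%) at least 95% of calls went to 1 side, against 3403 of all genes (41.6%). The main side was downstream of the start in 23 (71.9%), against 50.9% of all genes. The median of the genes' median distances was 240 kb against 230 kb, with upper quartiles of 483 and 380 kb. A median of 24.8% of a ligand gene's calls had a promoter in the partner bin, against 41.8% over all genes, and 44.9% had a CTCF peak there, against 56.4%. Ligand genes are not independent of each other where they lie side by side, and these shares carry no test.

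Fgf8 (19:45736798-45742915, minus strand) sent 271 of 276 calls downstream, at a median of 480 kb, far past its own short gene. The block at 19:45190001-45260000 around Lbx1, a homeobox gene, was called in 12 lists with an observed over expected ratio of up to 13.7, that at 19:45140001-45180000 around Tlx1 in 12, and that at 19:45530001-45600000, with starts of Fbxw4 and Poll, in 12. The Fgf8 TSS bin held CTCF motifs on both strands (12 lists, 54.4-fold, and 9 lists, 30.1-fold), and the minus-strand motif faced the plus-strand motif of the Lbx1 block (12 lists, 62.6-fold). Calls of Fgf8 cannot be separated from those of Npm3, which shares the bin.

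Fgf9 (14:58070547-58112720, plus strand) made 237 of 237 calls downstream, at a median of 630 kb, and 0 had a promoter in the partner bin. Its blocks lay at 14:58660001-58720000 (11 lists) and 14:59060001-59080000 (10 lists, up to 13.4). The first held the CTCF site printed above (12 lists, 28.3-fold) on the minus strand, while a CTCF peak in the Fgf9 TSS bin was present in 5 of 12 lists.

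Bmp2 (2:133552159-133562885, plus strand) had 166 of 202 calls downstream and also no promoter among its partners. The block at 2:134460001-134500000, 910 to 940 kb away, was called in 11 lists with a ratio of up to 14.5, and that at 2:134000001-134030000 in 11. The plus-strand CTCF motif of the TSS bin (12 lists, 34.4-fold) faced the minus-strand motif of the far block (12 lists, 50.1-fold). Gdf6 (4:9844372-9862345, plus strand), a joint and skull signal, was alike, with 80 of 80 calls downstream at a median of 900 kb and 0 with a promoter. The CTCF motif of its TSS bin lay on the plus strand (12 lists, 38.8-fold).

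Bmp4 (14:46383520-46390669, minus strand) reached to both sides, with 84 and 74 calls, and 0.633% of its calls had a promoter in the partner bin. Its block at 14:46690001-46730000 was called in 10 lists and that at 14:45990001-46000000 in 6. Wnt11 (7:98835112-98855195, plus strand) also reached to both sides, with 101 and 133 calls, and its partners included the promoters of Uvrag (9 lists) and Lrrc32 (10 lists).

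At the other end of the range, Gdf1 had a promoter in 100% of its 32 partner calls, Wnt1 in 75.0% of 36, and Gdf5 in 72.1% of 43. Gdf11 (10:128882295-128891718, minus strand) made all 102 calls downstream at a median of 145 kb, Wnt7a 175 of 178 at 150 kb, and Wnt3 all 64 at 130 kb. The genes that went upstream included Wnt1 (36 of 36), Wnt4 (83 of 84), Gdf10 (91 of 91) and Fgf15 (129 of 145). Ligand genes therefore covered the range from near contacts with other promoters to far contacts with bins that hold none.

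**Figure D5:**
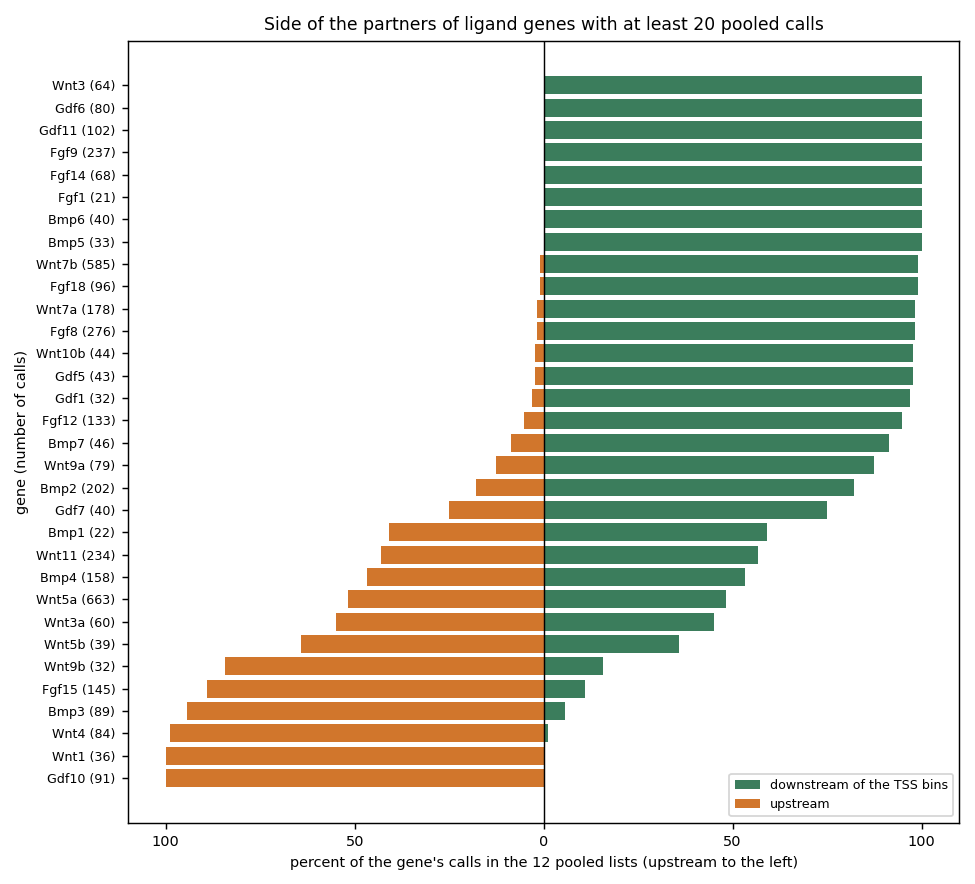
Percent of pooled calls that went downstream or upstream of the start for the 32 ligand genes with at least 20 calls. Fgf9, Gdf6 and Gdf11 send 100% downstream, Wnt1 and Gdf10 100% upstream, and Wnt5a, Bmp4 and Wnt11 are split between the sides.

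CTCF peaks lay in a TSS bin of 30 of these 32 genes (93.8%, against 92.6% of all genes), and in 22 they were present in all 12 lists (68.8%, against 59.7%). Wnt3 and Wnt9b had none. A motif was found in 93.8%, against 84.1%. In 16 ligand genes the motifs of the TSS bins all pointed one way, and in 13 of these (81.3%) they pointed to the main side, against 2298 of 3568 such genes overall (64.4%). The 3 that pointed away were Wnt3a, Wnt4 and Gdf10. A motif match is a description of the sequence within a peak, and its part in the side of the calls was not tested.

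Several ligand genes are neighbours and shared contacts. Wnt3a and Wnt9a, 16.2 kb apart, had the same partner bin in the same list 37 times (61.7% of the Wnt3a and 46.8% of the Wnt9a calls). Zfp867 was reached by Wnt9a in 12 lists and by Wnt3a in 10. The pair Wnt3 and Wnt9b shared 19 (29.7% and 59.4%), and Wnt1 and Wnt10b 14 (38.9% and 31.8%).

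Fgf3, Fgf4 and Fgf15 lie in 1 cluster. Fgf15 shared 14 calls with Fgf3 (82.4% of those of Fgf3 and 9.66% of its own) and 10 with Fgf4 (71.4% and 6.90%), and Fgf4 and Fgf15 were joined by a direct call in 3 lists. Fgf15 also reached Fadd, which encodes a cell death adaptor, in 12 lists, with a ratio of up to 13.2. For Wnt6 and Wnt10a, which also lie side by side, 0 calls were shared, from 9 and 2 pooled calls.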

How the data were processed

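H3K4me3 PLAC-seq libraries (MboI digestion, mapping to mm10) and CTCF ChIP-seq libraries were processed by the authors with tools that included BWA, SAMtools, Juicer and MACS2, versions not given in the sources used here. The deposited lists give the read-pair counts of a called bin pair and the read pairs expected there as a signal. The authors called interactions with MAPS in 10-kb bins (false discovery rate under 1%, observed over expected of at least 2, 20 kb to 1 Mb, autosomes), on each replicate and on replicates pooled and downsampled. Deposited CTCF peaks carry a fold enrichment ratio from MACS2 (p threshold 0.01, pooled libraries, kept where each library had a peak). A second CTCF list per tissue-stage was not used.

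Calls per gene were counted over TSS bins of GENCODE M21, scaled to the median library total (11396 to 63868 calls), and tested on log2(scaled + 1) with limma 3.58.1 in R 4.3.3 (mean of at least 1, group means, 2-sided, Benjamini-Hochberg). A call is not a read count, so limma was the test and the edgeR 4.0.16 quasi-likelihood test an alternative, with DESeq2 1.42.0 size factors and TMM as other scalings. Scripts were tested on simulated data. A CTCF matrix of 19 positions was built from the 5000 strongest FB E12.5 peaks and matched with a threshold of 0.0001 per position. The ligand genes and the gene lists were chosen with earlier results of these data known. Text names all ligand genes past the threshold in each of 9 comparisons, the 3 highest per family, those without calls or sharing TSS bins, and up to 4 pathway genes per comparison by adjusted p.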

Additional observations from a re-analysis of the deposited data

How the results depend on the processing

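Of 51 calls of a ligand gene in a comparison, 15 held under all alternatives that tested the gene (21 to 26 each) and 48 kept their direction. Reversed differences were Bmp2 in neural against non-neural tissues by edgeR (0.03) and, without scaling, late FB Fgf8 (0.10) and Wnt7b (0.30). The count of calls for neural against non-neural tissues (10) was 3 by edgeR and 4 in a 2-group fit that includes the spread between tissue-stages. That for LM (11) was 5 in the 2-group fit. That for CF (7) was 0 in the 2-group fit and 3 up to 200 kb. That for LV (10) was 6 by edgeR and 6 up to 200 kb. That for FB against other neural tissues (3) was 5 without scaling, 1 without a filter, 1 with the 5′ end alone, and 0 by edgeR and up to 200 kb. That for late against early FB (10) was 6 in the 2-group fit and 3 up to 200 kb. Leaving out 1 library gave 8 to 10 (neural), 8 to 13 (LM), 1 to 7 (CF), 8 to 11 (LV), 1 to 3 (FB) and 6 to 10 (late FB), and 0 in MB, HB and NT. Replicate numbers did not pair the libraries (correlations of deviations -0.058 to 0.077), and with a replicate block the counts were 10, 11, 7, 9, 2 and 10. TMM scaling moved the median of all genes by -0.25 in LV, 0.16 in late FB, 0.14 in neural tissues and 0.17 in HB. The causes of these changes were not tested. Genes with few calls per library set the limit, since 33 of 59 ligand genes could not be tested at E12.5.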
